A study of Mus musculus with 25 samples.

Results

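The early response of mouse liver to concanavalin A (ConA) was examined by setting 5 livers taken 3 hr after ConA and vehicle against 5 untreated livers, across all genes measured. These 10 livers were chosen by their sample titles out of 25 in the series. Mice of the ConA + vehicle group received 10 mg/kg ConA and, 15 minutes later, vehicle by intraperitoneal injection. Untreated mice received neither ConA nor vehicle, so the effects of the lectin, the vehicle and the handling cannot be told apart here. All were female C57BL/6NcrSlc mice, and each liver was hybridised to 1 single-colour Agilent array. Later levels, where given, come from 5 livers taken 24 hr after ConA and vehicle. A further 5 livers were taken 3 hr after ConA and 1 mg/kg BW245C, an agonist of the prostaglandin D2 receptor DP1.

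ConA is a plant lectin that binds sugars on cell surfaces and activates T cells and natural killer T cells. In mouse liver the activated lymphocytes release interferon gamma and tumour necrosis factor, and macrophages, endothelial cells and hepatocytes respond. The answering cells use a few shared relays. NF-kappaB and AP-1 carry the signals of tumour necrosis factor, interleukin 1 and pattern receptors, and the JAK kinases with STAT factors carry those of interferons and interleukin 6. Each relay induces its own inhibitors, such as A20 for NF-kappaB and the SOCS proteins for the JAK kinases. In bulk liver, fewer cells of a type and less RNA per cell cannot be told apart.

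Levels are given as scaled intensity, the processed signal of a gene's brightest probe with the 75th percentile of its array set to 100, and they compare arrays, not genes. A gene was called at an adjusted p under 0.05 (limma, Benjamini-Hochberg over 15104 genes, 5 mice per group), and values after ± are standard errors of a log2 difference. The share of spots well above background was 52.2% to 56.3% on ConA + vehicle arrays and 52.8% to 56.3% on untreated arrays, and no spot was saturated. The arrays lay on several slides. Slide 1 held 1 ConA + vehicle and 4 untreated arrays, slide 2 held 2 ConA + vehicle arrays and 1 untreated array, and slide 3 held ConA + vehicle replicates 4 and 5 and no untreated array. Replicates 4 and 5 correlated more closely with each other (0.994 over genes) than with the other ConA + vehicle arrays (0.981 to 0.988). Without them 3594 genes were called higher and 4837 lower. With slide as a blocking term 3383 were called higher and 4750 lower. The median spread of a gene between the arrays of a group was 0.26 on the log2 scale (SD) for ConA + vehicle and 0.13 for untreated. These spreads hold any differences between slides as well as those between mice. All medians of gene lists at or beyond 0.5 in size, 35 lists, kept their sign when slide was a blocking term and on slide 1 or slide 2 alone. With a normexp background, which adds an offset of 50, the log2 change was over 1.5 times smaller for 58 of the 181 called genes named here and over 1.5 times larger for none.

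At 3 hr, 3771 of 15104 genes were higher (25%) and 5596 lower (37.0%), or 62.0% in either direction, in ConA + vehicle livers than in untreated livers, and the median log2 change of all genes was -0.093. More genes fell than rose, but the large changes were mostly rises. At 2-fold or more 1513 genes were higher (10.0%) and 1918 lower (12.7%). At 8-fold or more 300 were higher (1.99%) and 119 lower (0.788%), and at 32-fold or more 95 were higher and 8 lower. Counting only genes above background on all 10 arrays, so that both sides were measured, 177 genes were higher and 42 lower at 8-fold or more. The median genomic span of genes higher by 8-fold or more was 13017 bases and that of genes lower by 8-fold or more 14917 bases, against 20536 bases for all genes tested. None of the 300 genes higher by 8-fold or more was annotated as noncoding, against 2.03% of all genes tested.

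**Figure D1:**
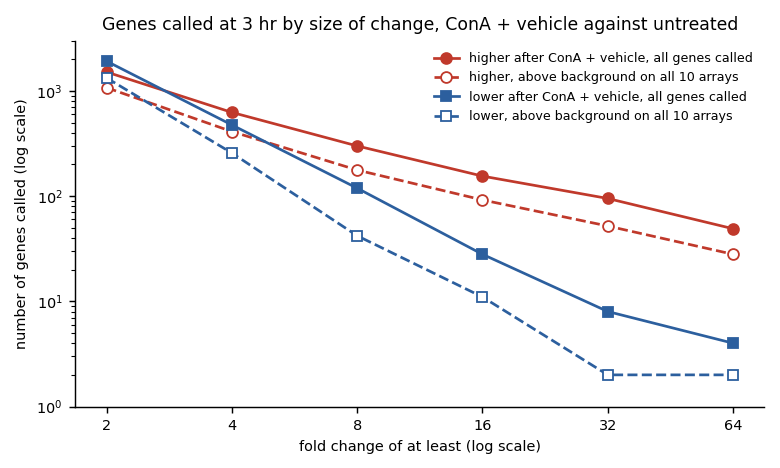
Number of genes called at 3 hr (vertical axis, log scale) whose fold change was at least the value on the horizontal axis (log scale), ConA + vehicle against untreated, 5 mice each. Higher genes (circles) are fewer than lower genes (squares) at 2-fold, 1513 against 1918, and more numerous from 4-fold on, with open symbols for genes above background on all 10 arrays.

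Transcription factors of the immediate early class were among the largest rises. Of 16 measured genes of the AP-1 and CREB families 15 were higher and none lower, with a median log2 change of 2.79. Atf3, a stress-induced factor that dimerises with Jun proteins, stood at 3650.2, 3087, 3106, 3499 and 4228 in ConA + vehicle livers, against 19.7, 36.1, 36.2, 28.9 and 29.6 in untreated livers. Every ConA + vehicle liver was far above every untreated one, a rise of 119-fold (log2 6.89 ± 0.36, adjusted p = 1.1e-13). The small Maf protein gene Maff rose 87.2-fold (adjusted p = 3.25e-14), Fos 42.7-fold (adjusted p = 1.05e-09) and Junb 42.02-fold (adjusted p = 1.57e-13, above background on 4 untreated arrays). Jdp2, a repressor of the family, was the member that did not pass (log2 0.32 ± 0.24, adjusted p = 0.252). Among EGR, NR4A and other immediate early genes 13 of 16 were higher and 1 lower, with a median of 2.19. Ier3, a survival gene induced by NF-kappaB, had values of 2897, 2154, 2676, 3633 and 2534 in ConA + vehicle livers and 11.5, 10.6, 10.1, 8.85 and 8.75 in untreated livers, which did not overlap, and rose 276-fold (log2 8.11 ± 0.41, adjusted p = 7.45e-14). Egr2 rose 139-fold (adjusted p = 1.26e-14, above background on 2 untreated arrays), the growth arrest gene Btg2 48.98-fold (adjusted p = 3.61e-14) and Egr1 41.04-fold (adjusted p = 1.71e-11). The exception was Mycn, a proto-oncogene of the Myc family, at 2.22, 1.17, 1.07, 1.15 and 2.41 in ConA + vehicle livers and 20.4, 36.1, 29.6, 33.7 and 40.3 in untreated livers. No ConA + vehicle array was above background for it, so the fall was at least 6.65-fold (adjusted p = 4.37e-11), while Klf2 (log2 0.086 ± 0.18, adjusted p = 0.692) and Klf4 (log2 -0.15 ± 0.23, adjusted p = 0.575) did not pass.

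All 16 genes of the list of Rel proteins and their inhibitors were higher, with a median log2 change of 3.49. The list also holds other genes of NF-kappaB signalling, such as kinase and ubiquitin ligase genes. The groups of arrays did not overlap for any of the 16, which held for 18.2% of all genes tested in that direction. Tnfaip3, which encodes A20, the ubiquitin-editing inhibitor of NF-kappaB, stood at 7673, 6918, 7837, 10358 and 10768 in ConA + vehicle livers and 64.4, 53.3, 62.6, 56.6 and 56.6 in untreated livers. The change was 146-fold (log2 7.19 ± 0.19, adjusted p = 1.97e-18), with a log2 value of 7.04 with slide as a blocking term, 7.03 within slide 1 and 7.10 within slide 2. Relb, a subunit of the noncanonical dimer, rose 37.5-fold (adjusted p = 3.01e-16), the inhibitor gene Nfkbie 20.9-fold (adjusted p = 5.28e-13) and Nfkb2, the precursor of p52, 17.2-fold (adjusted p = 1.73e-14). Regulators of mRNA decay rose in 12 and fell in 3 of 17. Zc3h12a, whose nuclease Regnase-1 cuts cytokine mRNAs, rose 18.5-fold (adjusted p = 4.35e-15), and Zfp36, whose product tristetraprolin binds AU-rich elements, 17.7-fold (adjusted p = 5.97e-12). Tob1, an antiproliferative partner of the deadenylase complex, was at 40.3, 56.01, 78.5, 59.5 and 118 in ConA + vehicle livers and 584, 636, 646, 635 and 509 in untreated livers and fell 9.09-fold (adjusted p = 1.43e-10). The levels of the groups did not overlap for Tob1, and its lowest untreated value was several times the highest ConA + vehicle value.

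Of 16 IRF and STAT genes 14 were higher and 2 lower. Irf8, a myeloid factor that interferon gamma induces, had values of 12001, 7679, 9728, 7565 and 8273 in ConA + vehicle livers and 218, 181, 229, 196 and 179 in untreated livers and rose 44.6-fold (log2 5.48 ± 0.24, adjusted p = 5.01e-15). Irf1, a factor of the interferon gamma response, rose 30.4-fold (adjusted p = 9.02e-18), Irf4 at least 9.62-fold (adjusted p = 5.92e-11) and Stat3, the factor downstream of interleukin 6, 4.51-fold (adjusted p = 5.42e-11). Of 7 CEBP factors 4 were higher and 1 lower, with Cebpd 12.03-fold (adjusted p = 7.29e-14) and Cebpb 5.61-fold (adjusted p = 5.9e-12) higher, Cebpe 2.46-fold (adjusted p = 2.57e-06) lower and Cebpa, the factor of resting hepatocytes, not passed (log2 -0.21 ± 0.14, adjusted p = 0.187). Without ConA + vehicle replicate 2 Cebpa was called lower (log2 -0.32, adjusted p = 0.0425).

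Inhibitors of cytokine signals were higher in 7 and lower in 3 of 13 genes measured. Socs1, a JAK inhibitor induced by interferons, stood at 6054, 6292, 5457, 6673 and 5706 in ConA + vehicle livers, against 22.3, 25.4, 23.8, 21.1 and 19.2 in untreated livers. It rose 271-fold (log2 8.08 ± 0.22, adjusted p = 2.64e-18), and the spread within each group was small beside the gap between them. Socs3, the inhibitor of gp130 receptors, rose 102-fold (adjusted p = 1.66e-16). Cish and Socs2, which damp growth hormone signals through STAT5, were higher too, but the untreated livers differed among themselves. Cish was at 6098, 6023, 6480.4, 6489.6 and 5903 in ConA + vehicle livers and 946, 189, 196, 507 and 371 in untreated livers, a rise of 16.9-fold (adjusted p = 8.16e-11). Socs2 was at 2319, 2988, 2074, 2354 and 2016 in ConA + vehicle livers and 818, 60.1, 48.5, 129.7 and 207 in untreated livers, a rise of 16.05-fold (adjusted p = 1.45e-07). Untreated replicate 1 was the highest of its group for both genes, yet lay below every ConA + vehicle liver. Socs5 fell 2.36-fold (adjusted p = 2.41e-10). MAP kinase phosphatases went both ways, with 5 of 12 higher and 4 lower. Dusp8, a phosphatase of JNK, rose 80.3-fold (adjusted p = 1.28e-14, above background on 1 untreated array) and Dusp2, a nuclear phosphatase, 14.7-fold (adjusted p = 1.7e-13). Dusp6, the cytosolic ERK phosphatase, fell 3.58-fold (adjusted p = 8.04e-10) and Dusp7 7.97-fold (adjusted p = 7.47e-07, above background on 1 ConA + vehicle array), whereas Dusp1 did not pass (log2 0.67 ± 0.30, adjusted p = 0.0585). Dusp1 was called higher in 7 alternatives, among them the replicate block (adjusted p = 0.0392) and leaving out ConA + vehicle replicate 2 (log2 0.85, adjusted p = 0.0201) or untreated replicate 4 (log2 0.80, adjusted p = 0.0338).

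Promoter sequences are shown for 5 genes because each holds written sites of the relays named above. The windows run from 250 bases before to 50 after the annotated start (RefSeq, build GRCm38.p6) and were available for 12017 of the genes tested, 15130 windows in all. Capitals mark matches, on either strand, to a kappaB site (GGGA, any base, TT, any base, CC), an interferon-stimulated response element or ISRE (GAAA, any pair of bases, GAAA), a STAT or GAS site (TTCNNNGAA) and an AP-1 site (TGANTCA). A match says only that the letters are present. Cxcl10 lies at chr5:92348840-92349139 on the minus strand, with an ISRE from -213, a kappaB site from -103 and an AP-1 site from -74. Cxcl1 lies at chr5:90890995-90891294 on the plus strand, with a kappaB site from -71. Gbp5 lies at chr3:142496684-142496983 on the plus strand, with GAS sites from -245 and -52, an ISRE from -165 and a kappaB site from -77. Socs1 lies at chr16:10785487-10785786 on the minus strand, with ISREs from -83 and -77 that overlap. Cish lies at chr9:107296409-107296708 on the plus strand, with GAS sites from 1 and 12.
Cxcl10: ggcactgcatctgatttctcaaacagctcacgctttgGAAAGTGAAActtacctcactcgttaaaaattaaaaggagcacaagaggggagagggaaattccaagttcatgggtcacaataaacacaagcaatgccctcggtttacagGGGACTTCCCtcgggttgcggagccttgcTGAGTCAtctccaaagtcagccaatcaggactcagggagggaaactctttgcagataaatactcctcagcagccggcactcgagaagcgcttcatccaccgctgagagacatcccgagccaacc
Cxcl1: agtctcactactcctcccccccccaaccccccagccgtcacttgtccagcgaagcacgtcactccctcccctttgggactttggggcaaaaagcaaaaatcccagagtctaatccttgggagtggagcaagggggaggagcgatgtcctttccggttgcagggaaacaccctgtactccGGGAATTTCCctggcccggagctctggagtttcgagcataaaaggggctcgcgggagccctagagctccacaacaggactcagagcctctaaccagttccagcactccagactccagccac
Gbp5: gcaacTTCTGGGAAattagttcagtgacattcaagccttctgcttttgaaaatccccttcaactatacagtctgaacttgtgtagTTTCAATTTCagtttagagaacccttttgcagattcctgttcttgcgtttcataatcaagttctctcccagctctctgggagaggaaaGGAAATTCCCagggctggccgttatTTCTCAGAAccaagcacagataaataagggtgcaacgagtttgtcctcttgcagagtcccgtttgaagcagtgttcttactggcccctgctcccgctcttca
Socs1: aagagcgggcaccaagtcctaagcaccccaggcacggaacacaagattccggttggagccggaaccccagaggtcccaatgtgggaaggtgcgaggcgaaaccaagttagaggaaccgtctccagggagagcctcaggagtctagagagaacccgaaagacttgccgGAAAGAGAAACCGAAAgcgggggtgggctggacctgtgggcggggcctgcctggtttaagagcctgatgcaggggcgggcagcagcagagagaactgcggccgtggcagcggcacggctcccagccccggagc
Cish: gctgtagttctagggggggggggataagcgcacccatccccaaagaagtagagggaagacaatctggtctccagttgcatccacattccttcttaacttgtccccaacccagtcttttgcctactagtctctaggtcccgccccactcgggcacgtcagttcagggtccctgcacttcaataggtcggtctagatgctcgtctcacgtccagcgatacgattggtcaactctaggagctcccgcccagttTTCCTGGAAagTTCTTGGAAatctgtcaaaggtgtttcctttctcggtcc

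The kappaB letters were present in 19 of 292 windows of genes higher by 8-fold or more (6.51%) and in 1 of 114 windows of genes lower by 8-fold or more (0.877%), against 1.32% of all 15130 windows. ISRE letters were present in 9.93% of the windows of genes higher by 8-fold or more and 1.75% of those lower, against 3.30% of all windows. GAS letters were found in 14.4% and 7.02% of these windows, against 7.40% of all, and AP-1 letters in 41 of 292 windows of the higher genes, against 6.02% of all windows. By list, 9 of 10 windows of the interferon-inducible GTPases held an ISRE and 6 a GAS site, 9 of 18 windows of the Rel proteins and their inhibitors held a kappaB site and none an ISRE, and 4 of 10 windows of CXC chemokines held a kappaB site. Of 20 windows of the type I interferon antiviral genes, 10 held an ISRE, 5 a GAS site and none a kappaB site. No kappaB or AP-1 letters were present in the 17 windows of the AP-1 and CREB family. Of the 8 windows of the cytokine signal inhibitors none held kappaB letters, 1 held an ISRE and 2 a GAS site. These are descriptions of sets chosen by their change or by name, and no test was made.

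Cytokines and their receptors followed. All 16 called genes among 18 cytokines of T and NK cells were higher. The median of the list was 3.43, but only 3 members were above background on all 10 arrays. It was 1.84 with genes that were above background in only one group at their bound and those with no fold at 0, 0.88 with a normexp background and 0.72 over probes above background on every array. Ifng had values of 583, 391, 340.3, 306 and 285 in ConA + vehicle livers and 3.66, 4.06, 4.96, 2.71 and 3.22 in untreated livers. It rose 101-fold (adjusted p = 3.32e-16, above background on 3 untreated arrays), and every ConA + vehicle liver lay far above the untreated ones. Ccl1, a chemokine of activated T cells, rose at least 82.3-fold (adjusted p = 1.04e-12). Il17f (adjusted p = 0.246, above background on 1 ConA + vehicle and no untreated array) and Il22 (log2 -0.12 ± 0.23, adjusted p = 0.659) were the members that did not pass. With slide as a blocking term Il22 was called lower (log2 -0.40, adjusted p = 0.0443), and Il17f passed without the slide 2 arrays (adjusted p = 0.0148) and with a normexp background (adjusted p = 0.0128). Colony stimulating factors and gp130 ligands were higher in 7 and lower in 1 of 12. Il6, the inducer of the acute phase, was at 209.7, 62.7, 138, 185 and 139.99 in ConA + vehicle livers and 5.03, 2.15, 3.19, 1.80 and 1.47 in untreated livers and rose 55.3-fold (adjusted p = 1.03e-12, above background on 1 untreated array). Csf2 rose at least 3.29-fold (adjusted p = 9.02e-14) and Csf1, the macrophage growth factor, 5.79-fold (adjusted p = 1.95e-11). Csf3, the granulocyte factor, did not pass (log2 1.20 ± 0.94, adjusted p = 0.277, above background on 2 ConA + vehicle arrays and 1 untreated array). Its values were 14.8, 1.94, 5.20, 6.34 and 4.30 in ConA + vehicle livers and 0.932, 0.916, 0.835, 0.881 and 103 in untreated livers, and untreated replicate 5 was above all other livers. Without that liver the log2 change was 2.57 (adjusted p = 0.000205).

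In the interleukin 1 family 10 of 15 genes were higher and none lower. Il1rn, the receptor antagonist, stood at 699, 516, 546, 504 and 586 in ConA + vehicle livers and 7.29, 7.62, 9.67, 4.41 and 6.20 in untreated livers and rose 83.1-fold (log2 6.38 ± 0.23, adjusted p = 2.66e-16, above background on 3 untreated arrays). Il1r2, the decoy receptor, rose at least 10.2-fold (adjusted p = 5.28e-10). The signalling receptor gene Il1r1 rose 12.3-fold (adjusted p = 1.99e-11), while the accessory chain Il1rap (log2 -0.20 ± 0.15, adjusted p = 0.256), the cytokine Il33 (log2 0.41 ± 0.24, adjusted p = 0.143) and Casp1, the processing protease (log2 0.41 ± 0.20, adjusted p = 0.0823), did not pass. Casp1 was called without ConA + vehicle replicate 2 (log2 0.53, adjusted p = 0.0312) and Il1rap, lower, with only the groups compared (log2 -0.20, adjusted p = 0.0395). TNF superfamily ligands and receptors were higher in 17 of 21 genes and lower in none, with a median of 1.58, or 0.83 with a normexp background. Tnf itself was at 250.2, 121, 140.3, 129.5 and 131 in ConA + vehicle livers and 2.76, 2.56, 2.93, 1.06 and 1.53 in untreated livers and rose at least 38.3-fold (adjusted p = 1.4e-12). Cd40, a receptor of antigen-presenting and endothelial cells, was at 443, 289, 389, 383 and 350.5 in ConA + vehicle livers and 9.73, 6.75, 10.4, 8.77 and 9.04 in untreated livers, groups that lay far apart, and rose 41.5-fold (log2 5.37 ± 0.26, adjusted p = 4.14e-14). Tnfsf8 rose at least 4.10-fold (adjusted p = 2.76e-11) and Lta, which encodes lymphotoxin alpha, at least 3.91-fold (adjusted p = 6.17e-10). Tnfrsf1b, the second TNF receptor, did not pass (log2 0.36 ± 0.16, adjusted p = 0.0601), but was called higher with slide as a blocking term (log2 0.62, adjusted p = 0.0126), without ConA + vehicle replicate 5 (log2 0.51, adjusted p = 0.00556) and with a normexp background (adjusted p = 0.0323). Of 27 cytokine receptor subunits 19 were higher and 2 lower, led by Il2ra 12.5-fold (adjusted p = 2e-10, above background on 1 untreated array), the high-affinity interleukin 2 chain, Il17ra 11.7-fold (adjusted p = 1.2e-14) and the oncostatin M receptor gene Osmr 5.49-fold (adjusted p = 9.47e-11). Il11ra1 2.31-fold (adjusted p = 1.43e-08) and Csf1r 1.33-fold (adjusted p = 0.0209) were lower, and the call of Csf1r was lost with slide as a blocking term (adjusted p = 0.288), without ConA + vehicle replicate 2 (adjusted p = 0.0829) and without untreated replicate 1 (adjusted p = 0.0665).

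Most chemokines were higher. Of 16 CC and CX3C chemokines 14 were higher and 1 lower, and of 12 CXC chemokines 9 were higher and 2 lower. The median of the CC and CX3C list was 4.01, or 2.43 with a normexp background and 1.98 over probes above background on every array. That of the CXC list was 4.43, or 3.28 with bounds, 1.54 with a normexp background and 1.28 over such probes. Ccl2, which draws monocytes, was at 15421, 10508, 10692, 10498 and 11478 in ConA + vehicle livers and 77.2, 42.98, 71.4, 41.7 and 65.4 in untreated livers and rose 200.3-fold (log2 7.65 ± 0.36, adjusted p = 1.88e-14). Ccl4 rose 137-fold (adjusted p = 1.02e-15). The interferon-induced T cell attractant Cxcl9 stood at 69217, 69641, 56335, 52474 and 49750.4 in ConA + vehicle livers, against 338, 366, 463, 269 and 236 in untreated livers, with no overlap, and rose 181-fold (log2 7.50 ± 0.20, adjusted p = 1.97e-18). Cxcl10, whose promoter is shown above, had values of 109170, 115988, 114533, 100992 and 97964 in ConA + vehicle livers and 336, 182, 265, 209 and 182 in untreated livers and rose 472-fold (log2 8.88 ± 0.28, adjusted p = 1.56e-17). Cxcl1, the attractant of neutrophils, had values of 6999, 6141, 8926, 9577 and 11014 in ConA + vehicle livers and 24.9, 22.7, 32.3, 16.2 and 21.6 in untreated livers and rose 363-fold (log2 8.51 ± 0.24, adjusted p = 4.3e-18). Every ConA + vehicle liver was above every untreated liver for both. The 3 lower chemokine genes were Cxcl12, Cxcl14 and Ccl27a, and Ccl25 (log2 0.057 ± 0.13, adjusted p = 0.705) and Cxcl13 (log2 -0.30 ± 0.45, adjusted p = 0.573) did not pass. Cxcl12 was at 2555, 3047, 2832, 2541 and 2672 in ConA + vehicle livers and 8671, 7144, 6659, 8324 and 7601 in untreated livers. Every ConA + vehicle liver was below every untreated liver for Cxcl12, a fall of 2.81-fold (adjusted p = 1.36e-09), and Cxcl14 fell 2.68-fold (adjusted p = 7.2e-06) and Ccl27a 1.49-fold (adjusted p = 9.44e-05). Among 18 chemokine receptors 6 were higher and 6 lower. Cxcr2, the receptor of neutrophils, rose at least 9.25-fold (adjusted p = 3.23e-11), whereas the monocyte receptor genes Cx3cr1 at least 4.14-fold (adjusted p = 2.41e-05) and Ccr2 at least 1.81-fold (adjusted p = 1.44e-05) fell, as did the scavenging receptor gene Ackr4 at least 1.76-fold (adjusted p = 0.000261). These 3 falls did not pass with a normexp background (adjusted p = 0.073 for Cx3cr1, 0.311 for Ccr2 and 0.269 for Ackr4).

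Of 19 leukocyte adhesion molecules 8 were higher and 1 lower, and the largest rises were of molecules on activated endothelium. Sele, which encodes E-selectin, was at 181, 105, 148, 222 and 195 in ConA + vehicle livers and 0.846, 0.840, 0.760, 0.791 and 1.07 in untreated livers, where no array was above background, and rose at least 42.4-fold (adjusted p = 2.51e-14). Icam1 rose 76.6-fold (log2 6.26 ± 0.21, adjusted p = 6.97e-17), Vcam1 25.1-fold (adjusted p = 4.23e-15) and Selp, the P-selectin gene, 14.5-fold (adjusted p = 3.08e-11). The integrin chain genes Itgal (log2 0.18 ± 0.18, adjusted p = 0.385), Itgam (log2 0.26 ± 0.18, adjusted p = 0.224) and Itgb2 (log2 -0.17 ± 0.19, adjusted p = 0.446) did not pass, nor did the ligand of selectins Selplg (log2 -0.26 ± 0.20, adjusted p = 0.28).

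Interferon targets were mostly higher. All 15 interferon-inducible GTPases measured were higher, with a median log2 change of 4.73, the highest of the pathway lists. These proteins coat and break the vacuoles of intracellular parasites and bacteria. Gbp2 stood at 32669.9, 31491, 21864, 22531 and 27418 in ConA + vehicle livers and 187, 156, 214, 129 and 154 in untreated livers, a rise of 162-fold (log2 7.34 ± 0.21, adjusted p = 7.45e-18). Gbp5, whose promoter is shown above, had values of 5639, 4197, 3299, 4598 and 4757 in ConA + vehicle livers and 48.9, 31.3, 43.8, 32.3 and 42.3 in untreated livers and rose 113-fold (adjusted p = 3.93e-16). Members of this family are similar in sequence, and probes of one may read another. Of 22 type I interferon antiviral genes 20 were higher and none lower (median 2.26), led by Ifit2 35.99-fold (adjusted p = 3.53e-11) and Ifit1 18.7-fold (adjusted p = 1.27e-11), with the deconjugase and feedback inhibitor Usp18 at 11.8-fold (adjusted p = 4.59e-13). For MHC class I loading and the immunoproteasome 16 of 19 genes were higher and none lower. The transporter gene Tap1 rose 10.5-fold (adjusted p = 1.97e-14) and Nlrc5, the transactivator of class I, 7.18-fold (adjusted p = 2.7e-13). MHC class II differed from this in its counts, with 3 of 13 higher and 1 lower. Ciita, the class II transactivator, did not pass (log2 0.79 ± 0.39, adjusted p = 0.0838), though it did without untreated replicate 5 (log2 1.25, adjusted p = 0.00113). Neither did H2-Ab1 (log2 0.23 ± 0.24, adjusted p = 0.407), which stood at 3109, 1559.6, 2297, 2239 and 1989.7 in ConA + vehicle livers and 2024, 1634, 2962, 1238 and 1827 in untreated livers, with overlapping groups.

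Innate sensors moved both ways. Among 26 pattern recognition receptors and adaptors 15 were higher and 4 lower. Tlr2, the receptor of lipoproteins, stood at 10435, 12628, 8737, 9012 and 9005 in ConA + vehicle livers and 69.3, 52.5, 54.6, 45.1 and 48.4 in untreated livers and rose 185-fold (log2 7.53 ± 0.24, adjusted p = 2.43e-17). Its co-receptor gene Cd14 rose 60.8-fold (adjusted p = 1.54e-14), and Irak3, an inhibitor of Toll-like receptor signals, 51.4-fold (adjusted p = 8.61e-16). Tlr4, the receptor of endotoxin, fell 1.90-fold (adjusted p = 0.0115) and the flagellin receptor gene Tlr5 2.58-fold (adjusted p = 0.000413, above background on 4 ConA + vehicle arrays). The call of Tlr4 was lost with slide as a blocking term (adjusted p = 0.112) and with a normexp background (adjusted p = 0.0657). Of enzymes that make inflammatory mediators 10 of 26 were higher and 4 lower. Acod1, which makes itaconate, was at 1404, 924, 878, 913 and 672 in ConA + vehicle livers and 7.84, 4.94, 5.82, 3.03 and 4.11 in untreated livers and rose 190.2-fold (log2 7.57 ± 0.35, adjusted p = 1.68e-14, above background on 3 untreated arrays). Ch25h, which makes an antiviral oxysterol, rose at least 175-fold (adjusted p = 1.1e-13) and Ptgs2, the inducible cyclooxygenase, at least 9.24-fold (adjusted p = 6.43e-09). Ptgs1, the constitutive cyclooxygenase, had values of 173, 96.6, 152, 114 and 85.4 in ConA + vehicle livers and 397, 307, 371, 345 and 386 in untreated livers and fell 3.00-fold (adjusted p = 2.02e-08). The prostanoid list, which also holds both cyclooxygenases, had 2 higher and 4 lower of 18. The prostaglandin E2 receptor gene Ptger4 rose at least 3.04-fold (adjusted p = 2.85e-08), and the thromboxane receptor gene Tbxa2r fell at least 7.54-fold (adjusted p = 2.21e-10) and the synthase gene Tbxas1 1.91-fold (adjusted p = 0.00174), which did not pass with slide as a blocking term (adjusted p = 0.0682).

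Acute phase genes were higher in 25 of 25 measured, with a median of 1.67. Saa3, a serum amyloid A gene, stood at 81988, 99194, 61358, 57839 and 51841 in ConA + vehicle livers and 319.96, 205, 254, 172 and 155 in untreated livers and rose 320.2-fold (log2 8.32 ± 0.21, adjusted p = 1.97e-18). Lcn2, which binds bacterial siderophores, was at 74328, 78644, 58103, 47336 and 40830.2 in ConA + vehicle livers and 454, 798, 633, 768 and 692 in untreated livers and rose 88.4-fold (log2 6.47 ± 0.17, adjusted p = 1.97e-18). Neither gene's groups overlapped, and ConA + vehicle replicates 4 and 5 were the lowest of their group for both. Complement genes were 7 higher and 1 lower of 25, and those of coagulation and fibrinolysis 11 higher and 5 lower of 29. The share of complement genes that rose was near that of all genes. F3, which encodes tissue factor, rose 22.4-fold (log2 4.49 ± 0.34, adjusted p = 5.8e-11) and the urokinase receptor gene Plaur 54.1-fold (log2 5.76 ± 0.31, adjusted p = 2.23e-13), while the anticoagulants went apart. The protein C receptor gene Procr rose 5.28-fold (adjusted p = 4.38e-07), and the tissue factor pathway inhibitor gene Tfpi fell 2.24-fold (adjusted p = 3.06e-06). In metal handling 9 of 22 genes were higher and 5 lower. The haem oxygenase gene Hmox1 rose 14.7-fold (adjusted p = 1.95e-14), the metallothionein gene Mt2 8.06-fold (adjusted p = 2.83e-11) and the zinc importer gene Slc39a14 6.41-fold (adjusted p = 9.02e-14), and the hemojuvelin gene Hjv fell 6.05-fold (adjusted p = 1.07e-09) and the iron exporter gene Slc40a1 2.66-fold (adjusted p = 5.51e-08).

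Apoptosis regulators and p53 targets were higher in 17 and lower in 5 of 28. Gadd45b, an inhibitor of JNK-driven death that NF-kappaB induces, rose 59.6-fold (log2 5.90 ± 0.29, adjusted p = 4.58e-14). Bbc3, which encodes the killer protein PUMA, stood at 135, 83.9, 61.4, 55.8 and 60.8 in ConA + vehicle livers and 482, 883, 837, 439.9 and 539.7 in untreated livers and fell 8.15-fold (log2 -3.03 ± 0.23, adjusted p = 7.61e-11), while Bax did not pass (log2 -0.079 ± 0.11, adjusted p = 0.554). Genes of the integrated stress and unfolded protein responses were 8 higher and 6 lower of 22, heat shock genes 4 and 4 of 15, and NRF2 targets 4 and 6 of 18. The shares of NRF2 targets were near those of all genes. Ppp1r15a, which restarts translation, rose 10.69-fold (adjusted p = 2.26e-11) and the chaperone gene Hspa1a 7.64-fold (adjusted p = 4.84e-08). The glutathione synthesis gene Gclc fell 2.23-fold (adjusted p = 5.34e-08). Ddit4, a stress-induced inhibitor of mTOR, did not pass (log2 0.56 ± 0.39, adjusted p = 0.222). Hypoxia and glycolysis genes were 15 higher and 5 lower of 21. Pfkfb3, which makes the activator of phosphofructokinase, stood at 10518, 8533, 9372, 9006 and 8149 in ConA + vehicle livers and 127, 68.3, 83.4, 142 and 93.7 in untreated livers, far apart, and rose 91.5-fold (log2 6.52 ± 0.26, adjusted p = 1.31e-15). The vasodilator gene Adm rose 25.4-fold (adjusted p = 1.24e-09) and the hexokinase gene Hk2 13.8-fold (adjusted p = 2.15e-12), and the kinase of pyruvate dehydrogenase Pdk1 fell 2.37-fold (adjusted p = 7.33e-09).

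**Figure D2:**
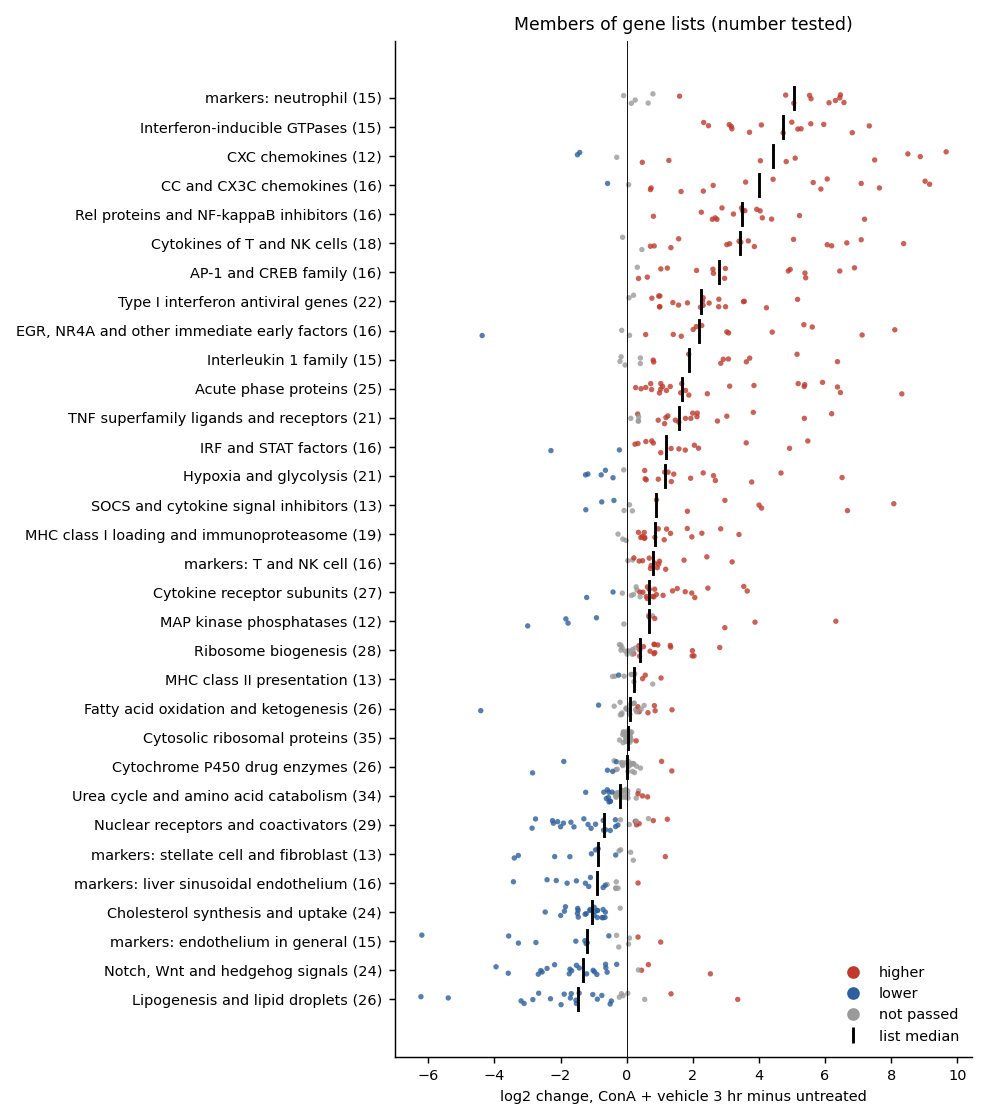
Log2 change of every tested member of 32 gene lists, ConA + vehicle 3 hr minus untreated (horizontal axis), 1 point per gene, red for called higher, blue for called lower and grey for not passed, with list medians as black bars. Interferon-inducible GTPases and chemokines lie to the right, ribosomal proteins and P450 enzymes around 0, and lipogenesis, Notch and Wnt and endothelial genes to the left.

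Among regulators of hepatocyte genes the nuclear receptors were mostly lower. Of 29 nuclear receptors and coactivators 20 were lower and 5 higher, with a median of -0.70. The orphan receptor gene Nr2f1 stood at 10.6, 8.15, 16.6, 14.1 and 8.48 in ConA + vehicle livers and 72.1, 82.8, 90.9, 79.3 and 81.02 in untreated livers, without overlap, and fell 7.27-fold (log2 -2.86 ± 0.20, adjusted p = 2.57e-11). Nr2f2 fell 6.76-fold (adjusted p = 4.31e-12) and the coactivator gene Ppargc1b 4.65-fold (adjusted p = 5.26e-06, above background on 4 ConA + vehicle arrays). Ppargc1a (log2 0.079 ± 0.20, adjusted p = 0.741), the fasting coactivator, did not pass. Hepatocyte transcription factors were 8 lower and 4 higher of 19, shares near those of all genes. Nr0b2, which encodes SHP, the bile acid-induced repressor of Cyp7a1, was at 9.30, 13.2, 14.3, 9.23 and 9.57 in ConA + vehicle livers and 192, 281, 252, 239.98 and 173 in untreated livers and fell 20.5-fold (log2 -4.36 ± 0.28, adjusted p = 4.17e-12). Tbx3 fell 6.38-fold (adjusted p = 2e-09) and Foxa2 4.90-fold (adjusted p = 4.78e-10). Hhex, a homeobox gene of liver development and endothelium in no list, stood at 60.1, 102, 73.3, 107.4 and 221 in ConA + vehicle livers and 1885, 1487, 1162, 2032 and 1952 in untreated livers and fell 16.5-fold (log2 -4.04 ± 0.27, adjusted p = 8.38e-12).

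The growth hormone and insulin-like growth factor list was 5 higher and 6 lower of 19. Irs1, the docking protein of the insulin receptor, had values of 19.7, 30.3, 36.95, 26.7 and 38.6 in ConA + vehicle livers and 513, 624, 554, 631 and 679.7 in untreated livers and fell 20.2-fold (log2 -4.33 ± 0.21, adjusted p = 3.8e-14), with a log2 value of -4.25 with slide as a blocking term. Its partner Irs2 rose 3.84-fold (adjusted p = 2.07e-09), and Insr did not pass (log2 0.24 ± 0.13, adjusted p = 0.112), though it did without ConA + vehicle replicate 1 (log2 0.35, adjusted p = 0.0187) and by the mean of its probes (log2 0.42, adjusted p = 0.00276). Grb7, an adaptor of growth factor receptors, was at 93.5, 209.6, 161, 167 and 188 in ConA + vehicle livers and 2455, 3640.2, 3721, 2532 and 2866 in untreated livers and fell 18.9-fold (adjusted p = 6.33e-13). Igfbp1, a binding protein of insulin-like growth factor, rose 4.37-fold (adjusted p = 6.68e-05), and Igf1 itself did not pass (log2 0.10 ± 0.13, adjusted p = 0.534). Among growth factors 10 of 26 were higher and 10 lower. Gdf15, a stress cytokine, rose 26.6-fold (adjusted p = 2.02e-10), Hbegf 19.6-fold (adjusted p = 1.65e-11) and Ereg 8.75-fold (adjusted p = 8.12e-08, above background on 3 untreated arrays). Gdf15 ranged widely among ConA + vehicle livers, with values of 3485, 928, 2297, 5622 and 5194, against 95.6, 137, 133, 116 and 79.6 in untreated livers. Fgf21, a hormone of fasting liver, was at 1.90, 1.07, 0.971, 1.18 and 1.99 in ConA + vehicle livers and 21.4, 40.3, 32.6, 28.5 and 25.5 in untreated livers and fell at least 6.18-fold (adjusted p = 4.14e-12).

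Most measured genes of cholesterol synthesis and of lipogenesis were lower. Gluconeogenesis and glycogen genes were 12 lower and 2 higher of 22, and G6pc, the last enzyme of glucose release, stood at 31.01, 30.1, 51.9, 34.2 and 52.7 in ConA + vehicle livers and 8239, 15187, 12653, 17951 and 13354 in untreated livers. It fell 337-fold (log2 -8.40 ± 0.48, adjusted p = 6.51e-13), the groups lying far apart. The glycogen-targeting subunits Ppp1r3g 14.9-fold (adjusted p = 7.95e-07, above background on 3 ConA + vehicle arrays) and Ppp1r3c 5.82-fold (adjusted p = 3.78e-07) fell. Pck1 (log2 -0.47 ± 0.27, adjusted p = 0.131) and Fbp1 (log2 -0.16 ± 0.14, adjusted p = 0.317), which also encode enzymes of gluconeogenesis, were among the 8 that did not pass. Pcx, the pyruvate carboxylase gene, was among the 2 called higher. Fbp1 was called lower with quantile normalization (log2 -0.39, adjusted p = 0.00531). Of 24 genes of cholesterol synthesis and uptake 23 were lower and none higher (median -1.04). Lss, the lanosterol synthase gene, had values of 143, 121, 122, 98.4 and 116 in ConA + vehicle livers and 415, 979.6, 786, 550.4 and 705 in untreated livers, without overlap, and fell 5.52-fold (log2 -2.46 ± 0.23, adjusted p = 3.48e-09). Srebf2, the transcription factor of this pathway, was the member that did not pass (log2 -0.20 ± 0.17, adjusted p = 0.32), though it did without the slide 2 arrays (log2 -0.43, adjusted p = 0.0431). Lipogenesis and lipid droplet genes were 19 lower and 2 higher of 26 (median -1.48). Fasn was at 138, 215, 309, 162 and 343 in ConA + vehicle livers and 668, 3077, 3052, 2733 and 1913 in untreated livers and fell 9.15-fold (log2 -3.19 ± 0.39, adjusted p = 1.81e-07). Untreated replicate 1 was the lowest untreated liver for Lss and for Fasn, and still above every ConA + vehicle liver. The droplet coat gene Cidec went the other way, at 368, 120.5, 184, 137 and 83.8 in ConA + vehicle livers and 14.5, 19.5, 17.6, 12.2 and 13.5 in untreated livers, and rose 10.3-fold (adjusted p = 8.42e-06).

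Most enzymes of mature hepatocytes did not pass at 3 hr. Fatty acid oxidation genes were 6 higher and 2 lower of 26, drug-metabolising P450 genes 2 and 5 of 26, conjugation enzymes 2 and 9 of 31, urea cycle and amino acid genes 3 and 10 of 34, and lipoprotein and lipid transport genes 4 and 9 of 28. Cps1 (log2 -0.18 ± 0.15, adjusted p = 0.311), the entry enzyme of the urea cycle, and Cyp2e1 (log2 0.30 ± 0.18, adjusted p = 0.142) were among those not passed. Bile acid genes were 10 lower and 4 higher of 26, the falls near the share of all genes (37.0%). Cyp7a1 stood at 4.94, 2.20, 5.65, 12.4 and 44.97 in ConA + vehicle livers and 1231, 972, 814, 1344 and 1324 in untreated livers and fell 138-fold (log2 -7.11 ± 0.71, adjusted p = 8.17e-09, above background on 3 ConA + vehicle arrays). Every ConA + vehicle liver was far below the untreated ones, and replicate 5 was the highest of its group. Cyp8b1 fell 4.44-fold (adjusted p = 5.55e-06), while the basolateral exporter subunit Slc51b rose 2.87-fold (adjusted p = 0.000982) and the canalicular bile salt pump gene Abcb11 did not pass (log2 -0.15 ± 0.18, adjusted p = 0.481). Respiratory chain and ATP synthase genes were 1 higher and 7 lower of 30.

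Most measured signals that pattern the liver were lower. Of 24 Notch, Wnt and hedgehog genes 20 were lower and 3 higher, with a median of -1.32, or -1.11 with bounds and -0.50 with a normexp background. Rnf43, a Wnt target that removes Wnt receptors, stood at 20.9, 40.5, 56.7, 38.1 and 53.3 in ConA + vehicle livers and 659, 598, 557, 568 and 695 in untreated livers and fell 15.5-fold (log2 -3.95 ± 0.23, adjusted p = 9.57e-13), with a log2 value of -3.81 with slide as a blocking term. Axin2, the general Wnt target, fell 6.06-fold (adjusted p = 1.77e-10, above background on 4 ConA + vehicle arrays). The Notch target Hey1 fell at least 4.13-fold (adjusted p = 5.99e-10). Gli1, the hedgehog target, rose against the list, at least 2.63-fold (adjusted p = 4.97e-07), as did the Notch ligand gene Jag1 1.58-fold (adjusted p = 0.00207).

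Many markers of the resident vascular cells fell as well, and their part in the falls above was not tested. General endothelial markers were 9 lower and 2 higher of 15 (median -1.19, or -0.35 with a normexp background and -0.42 over probes above background on every array), sinusoidal markers 10 lower and 1 higher of 16 (median -0.90) and stellate cell markers 8 lower and 1 higher of 13 (median -0.86, or -0.33 with a normexp background and -0.57 on slide 1 alone). Cldn5, a tight junction protein of endothelium, stood at 29.3, 17.3, 31.6, 29.01 and 26.02 in ConA + vehicle livers and 298, 303, 338, 288 and 324 in untreated livers and fell 11.9-fold (log2 -3.57 ± 0.22, adjusted p = 2.16e-12). Sox18 at least 15.5-fold (adjusted p = 3.45e-16), Sox17 at least 5.54-fold (adjusted p = 3.14e-08) and the secreted Egfl7 6.70-fold (adjusted p = 1.18e-12) fell too. Pecam1 (log2 0.083 ± 0.19, adjusted p = 0.716), Cdh5 (log2 -0.24 ± 0.20, adjusted p = 0.296) and the lectin-like scavenger Stab2 (log2 -0.33 ± 0.20, adjusted p = 0.154), defining markers of the same cells, did not pass, although Stab2 was called lower without ConA + vehicle replicate 1 (log2 -0.48, adjusted p = 0.0357). Kdr, the receptor of vascular growth factor, rose 1.27-fold (adjusted p = 0.0196) by its brightest probe, but its probes disagreed and their mean gave a log2 change of -0.82 (adjusted p = 1.43e-07). Its call was also lost with slide as a blocking term (log2 0.23, adjusted p = 0.135), without ConA + vehicle replicate 4 (adjusted p = 0.055) or 5 (adjusted p = 0.0564), and with quantile normalization (adjusted p = 0.121). Gpr182 was the sinusoidal marker that fell most, 10.8-fold (adjusted p = 1.14e-13), followed by Dll4 5.31-fold (adjusted p = 3.73e-09, above background on 1 ConA + vehicle array). Pdgfrb, the receptor of stellate cells and pericytes, was at 13.7, 8.08, 13.1, 10.4 and 9.93 in ConA + vehicle livers and 113, 121, 123, 115 and 100.2 in untreated livers, far apart, and fell 10.6-fold (log2 -3.40 ± 0.21, adjusted p = 2.29e-12). Lrat, which stores retinol in stellate cells, fell 9.69-fold (adjusted p = 7.44e-11), and Acta2 (log2 0.20 ± 0.23, adjusted p = 0.465) and Reln (log2 -0.23 ± 0.18, adjusted p = 0.282) did not pass. Matrix genes split into 13 higher and 11 lower of 31, with the collagenase gene Mmp13 at least 75.9-fold (adjusted p = 2.36e-11) and the aggrecanase gene Adamts4 at least 47.5-fold (adjusted p = 5.01e-12) up, Col5a1 1.85-fold (adjusted p = 1.02e-05) down, and Col1a1 not passed (log2 -0.25 ± 0.24, adjusted p = 0.381).

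**Figure D3:**
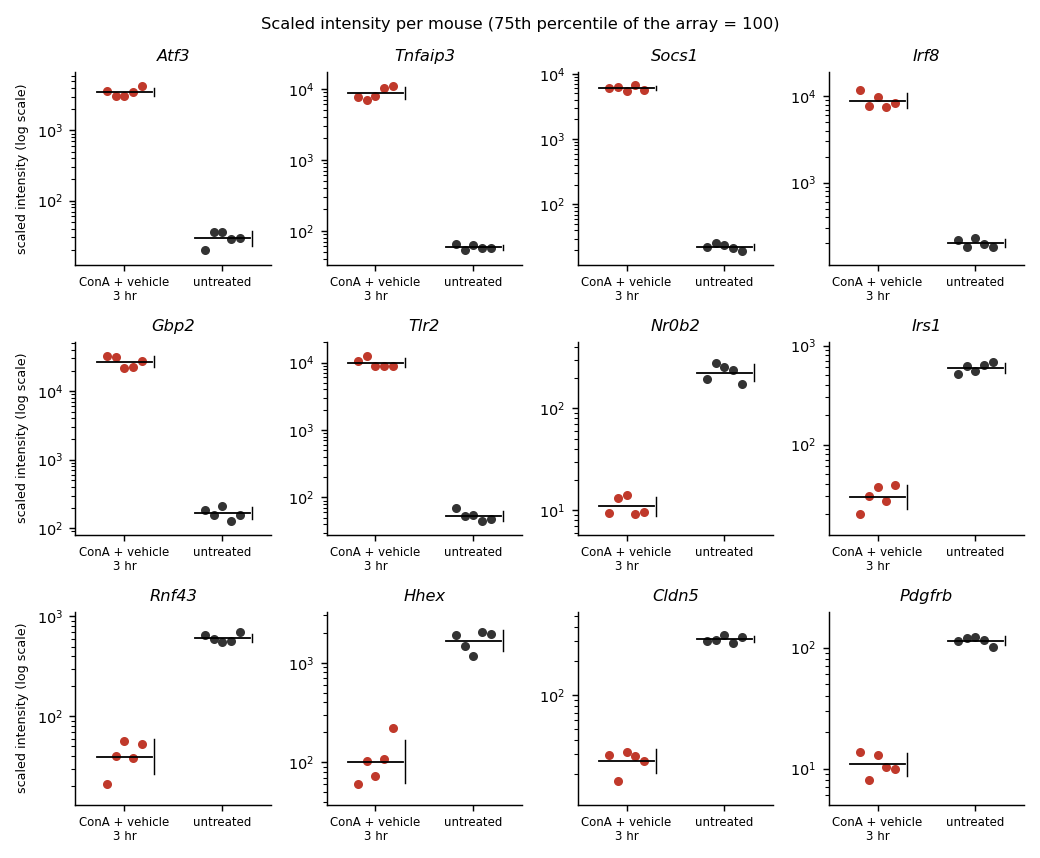
Scaled intensity of 12 genes in each mouse (vertical axes, log scale, 75th percentile of the array = 100), ConA + vehicle 3 hr in red and untreated in black, with horizontal lines at the mean of log values and vertical lines of 1 SD on the log scale (n = 5 each). The first 6 genes, such as Socs1, lie higher in every ConA + vehicle mouse and the last 6, such as Irs1, lower in every one.

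Of the leukocyte marker lists, neutrophil markers were higher in 10 of 15 and lower in none. Their median was 5.05, or 3.21 with bounds, 1.49 with a normexp background and 0.65 over probes above background on every array. Elane, Camp, Csf3r, Mmp9 and Itgam were the members that did not pass. The alarmin gene S100a8 was at 2791, 1808, 1167, 1123 and 1303 in ConA + vehicle livers and 16.4, 15.01, 15.3, 11.1 and 26.5 in untreated livers and rose 95.2-fold (adjusted p = 2.13e-13), and Retnlg rose 87.2-fold (adjusted p = 4.7e-13, above background on 1 untreated array). The summed level of the 15 neutrophil markers was 62100 to 105900 in ConA + vehicle livers and 14110 to 15280 in untreated livers. Lcn2, which hepatocytes also make, held 65.8% to 76.7% of that summed signal in ConA + vehicle livers. Without Lcn2 the sum was 19880 to 31550 in ConA + vehicle livers and 13320 to 14650 in untreated livers. Such sums, here and below, weigh genes by the signal of their probes, so they compare arrays and are not amounts of marker RNA. Of T and NK cell markers 14 of 16 were higher and none lower (median 0.79, or 0.43 with a normexp background). Gzmb, a granule protease, rose 9.13-fold (adjusted p = 1.88e-09), and the lineage markers Cd4 (log2 0.18 ± 0.28, adjusted p = 0.585) and Klrb1c (log2 0.033 ± 0.34, adjusted p = 0.937, above background on 1 ConA + vehicle array and 3 untreated arrays) did not pass, although Klrb1c did with a normexp background (log2 0.24, adjusted p = 0.00709). T cell receptor components were 14 higher and 1 lower of 19, with the activation marker Cd69 15.4-fold (adjusted p = 2.31e-11, above background on 1 untreated array). Monocyte and macrophage markers were 4 higher and 5 lower of 10, Kupffer cell markers 2 and 4 of 16, dendritic cell markers 5 and 1 of 8, B cell markers 2 and 0 of 6 and platelet markers 6 and 1 of 7. Clec4f (log2 -0.75 ± 0.36, adjusted p = 0.0764), which defines Kupffer cells, and Timd4 (log2 0.50 ± 0.29, adjusted p = 0.134) did not pass. Clec4f was called lower without ConA + vehicle replicate 1 (log2 -0.97, adjusted p = 0.0248), with only the groups compared (adjusted p = 0.0198) and in the series table (adjusted p = 0.048). The summed level of T and NK markers was 5622 to 10440 in ConA + vehicle livers and 4340 to 8252 in untreated livers, or, without Cd4, 1752 to 2154 in ConA + vehicle livers and 1114 to 1282 in untreated livers. Hepatocyte markers, which check the labelled tissue, were above background on all 10 arrays, and 6 of 12 were higher and 1 lower. Erythroid markers were 5 higher and none lower of 6 (median 2.91, or 2.32 with a normexp background), and the groups of arrays did not overlap for those 5. The parts of infiltrating cells and of blood in the marker, cytokine and receptor results were not tested. Checkpoint and regulatory T genes were 7 higher and 3 lower of 16. Cd274, the ligand PD-L1, stood at 3236, 2503, 2741, 2912 and 3282 in ConA + vehicle livers and 48.5, 59.9, 67.96, 41.3 and 53.8 in untreated livers and rose 54.6-fold (log2 5.77 ± 0.26, adjusted p = 8.18e-15), whereas Foxp3 did not pass (log2 0.53 ± 0.25, adjusted p = 0.0751, above background on 4 untreated arrays), though it did without untreated replicate 1 (adjusted p = 0.0431) or ConA + vehicle replicate 2 (adjusted p = 0.0364) or 3 (adjusted p = 0.0445). Lag3 fell at least 2.27-fold (adjusted p = 4.68e-06), a call lost with a normexp background (adjusted p = 0.058).

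Genes that assemble ribosomes were often higher, and few genes of the ribosome itself were called. Of 28 ribosome biogenesis genes 17 were higher and none lower, whereas of 35 cytosolic ribosomal proteins 1 was higher and none lower (median 0.039). Nop58, a core protein of box C/D particles, had values of 3017, 2742, 2148, 2367 and 2391 in ConA + vehicle livers and 301, 372, 327, 389.9 and 409 in untreated livers, which did not overlap, and rose 7.04-fold (log2 2.81 ± 0.13, adjusted p = 2.22e-14). Rrs1 rose 4.10-fold (adjusted p = 8.3e-13) and Gnl3, which encodes nucleostemin, 3.97-fold (adjusted p = 9.52e-11). Rps20, the ribosomal protein gene called, rose 1.22-fold (adjusted p = 0.0214), with values of 36081, 37362, 30133, 25263 and 24196 in ConA + vehicle livers and 25423, 25385, 24207, 24171 and 24254 in untreated livers that overlapped. The call was lost without ConA + vehicle replicate 1 (adjusted p = 0.0728) and without replicate 2 (adjusted p = 0.0783). Aminoacyl-tRNA synthetases were 11 higher and 2 lower of 20, led by Wars 2.74-fold (adjusted p = 2.35e-06), an interferon gamma target, and constitutive proteasome subunits 7 and 1 of 27. Solute carriers of amino acids, sugars and nucleosides were 12 higher and 5 lower of 27, with the arginine importer gene Slc7a1 6.03-fold (adjusted p = 1.16e-10) up and the insulin-regulated glucose carrier gene Slc2a4 12.4-fold (adjusted p = 1.29e-05) down. In purine, polyamine and NAD metabolism 10 of 23 were higher and 5 lower, with the uridine phosphorylase gene Upp1 20.1-fold (adjusted p = 4.41e-11) up and the cytidine deaminase gene Cda 8.44-fold (adjusted p = 2.16e-12) down. Cell cycle genes were 9 higher and 12 lower of 34, shares near those of all genes. Plk3 rose 12.5-fold (adjusted p = 3.24e-16) and Ccnf fell 56.6-fold (adjusted p = 1.43e-12, above background on 3 ConA + vehicle arrays).

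Several of the largest changes fell in no list. Hcar2, the receptor of beta-hydroxybutyrate and niacin, was at 1029, 1053, 1032, 876 and 1124 in ConA + vehicle livers and 5.70, 6.22, 5.99, 4.73 and 2.19 in untreated livers and rose 219-fold (log2 7.77 ± 0.40, adjusted p = 9.07e-14, above background on 4 untreated arrays). Calhm6, a channel gene of activated macrophages, rose 125-fold (adjusted p = 1.6e-15), Arid5a, which stabilises Il6 mRNA, 112-fold (adjusted p = 9.94e-16), the ubiquitin-like Ubd 95.95-fold (adjusted p = 6.44e-14, above background on 4 untreated arrays) and Tifa, an adaptor of TRAF proteins, 86.5-fold (adjusted p = 3.94e-16). Ripk2, the kinase of NOD receptors, stood at 679.6, 745, 682, 824 and 892 in ConA + vehicle livers and 8.40, 8.36, 11.7, 7.88 and 13.9 in untreated livers and rose 77.6-fold (log2 6.28 ± 0.22, adjusted p = 1.37e-16). Rnd1, a constitutively active small GTPase, rose 73.1-fold (adjusted p = 2.27e-16). Of the falls outside the lists, Sall2, a zinc finger factor, was at 1.14, 1.30, 1.18, 1.22 and 1.00 in ConA + vehicle livers and 36.8, 31.5, 31.6, 30.7 and 27.3 in untreated livers and fell at least 6.70-fold (adjusted p = 6.97e-17). No ConA + vehicle array was above background for it. Pth1r, the parathyroid hormone receptor gene, had values of 11.4, 13.6, 18.99, 12.8 and 10.2 in ConA + vehicle livers and 377, 416, 444, 357 and 411 in untreated livers and fell 30.5-fold (log2 -4.93 ± 0.21, adjusted p = 4.4e-15), again without overlap. Gucy1a1, a subunit of the nitric oxide receptor, fell 18.7-fold (adjusted p = 2.72e-13), the cadherin gene Pcdh12 17.7-fold (adjusted p = 1.08e-14) and Cyp26b1, which degrades retinoic acid, 17.5-fold (adjusted p = 4e-06).

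Circadian genes varied between mice of the ConA + vehicle group. Of 17 measured 6 were higher and 8 lower. Arntl, the activator BMAL1, stood at 264, 87.9, 88.5, 56.7 and 60.2 in ConA + vehicle livers and 452, 504, 480.5, 472 and 497 in untreated livers and fell 5.16-fold (log2 -2.37 ± 0.25, adjusted p = 1.51e-08). Replicate 1 of the ConA + vehicle group was the closest to the untreated livers. Per2, a repressor of the clock, was at 0.882, 2.36, 3.00, 2.11 and 6.58 in ConA + vehicle livers and 13.2, 32.98, 34.6, 43.7 and 22.8 in untreated livers and fell 11.2-fold (log2 -3.48 ± 0.39, adjusted p = 4.79e-08, above background on 1 ConA + vehicle array). Ciart, another repressor, was at 1.71, 8.32, 16.3, 8.32 and 21.3 in ConA + vehicle livers and 0.849, 0.862, 1.30, 2.89 and 1.10 in untreated livers and rose at least 2.16-fold (adjusted p = 6.88e-05), with replicate 1 inside the untreated range. Dbp, an output factor, ran through 18.4, 64.1, 100.2, 97.4 and 575 in ConA + vehicle livers, against 73.8, 58.03, 58.6, 42.4 and 52.6 in untreated livers, and did not pass (log2 0.71 ± 0.54, adjusted p = 0.257). Without replicate 1 of ConA + vehicle the log2 change was 1.29 (adjusted p = 0.0169). Replicate 1 was the lowest and replicate 5 the highest ConA + vehicle liver for Dbp, and likewise for Tef (log2 -0.23 ± 0.33, adjusted p = 0.555), a related factor. The output is set by the hour of day, which the labels do not give, so hour and treatment cannot be told apart here.

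**Figure D4:**
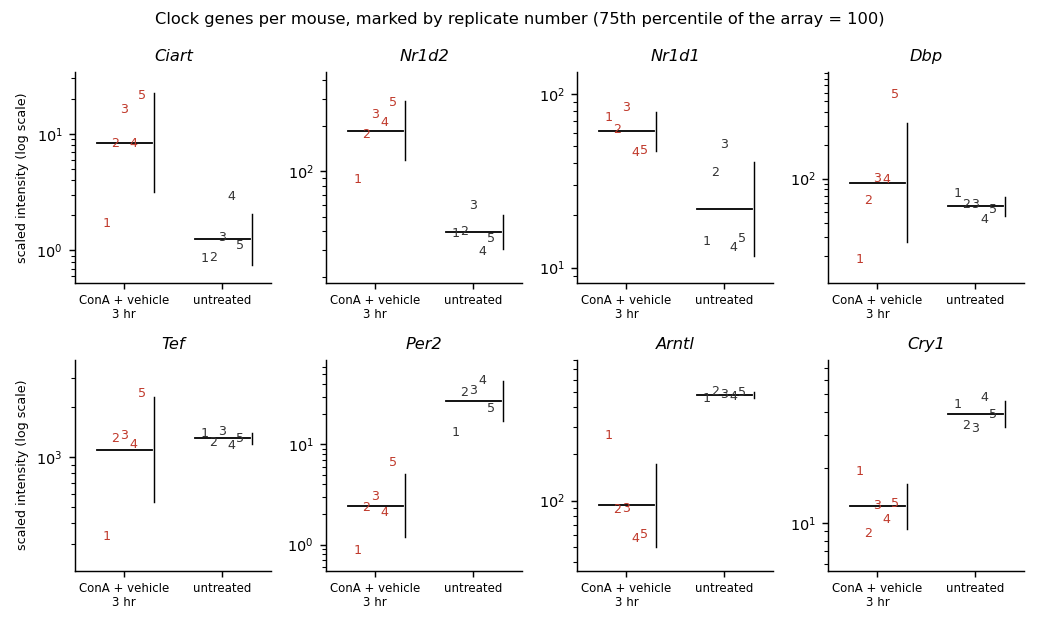
Scaled intensity of 8 clock genes (vertical axes, log scale) in ConA + vehicle 3 hr livers in red and untreated livers in black, with each mouse marked by its replicate number, horizontal lines at the mean of log values and vertical lines of 1 SD (n = 5 each). Replicate 1 of ConA + vehicle is the lowest of its group for Dbp, Tef, Ciart, Nr1d2 and Per2 and the highest for Arntl and Cry1.

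To place the 3 hr levels, each gene was also tested directly between livers taken 24 hr and 3 hr after ConA + vehicle, a comparison that shares the 3 hr arrays. Over all genes 5011 were higher (33.2%) and 5327 lower (35.3%), or 68.4% in either direction, at 24 hr than at 3 hr. That balance depended on the scaling, with 8346 higher and 2922 lower in the series table, 5860 and 4685 after quantile normalization and 4237 and 6603 with a normexp background. Several inhibitors and sensors named above were lower at 24 hr than at 3 hr. Tnfaip3 was at 618, 504, 445, 643 and 329 at 24 hr, a log2 difference from 3 hr of -4.12 ± 0.19 (adjusted p = 3.94e-14). For Tlr2 that difference was -4.32 ± 0.24 (adjusted p = 4.03e-13), for Ripk2 -4.73 ± 0.22 (adjusted p = 4.12e-14) and for Socs2 -4.75 ± 0.48 (adjusted p = 7.23e-09). The 24 hr level of Socs2, 69.5, 83.8, 73.5, 121 and 94.5, lay among the untreated values. For other genes the difference between the times did not pass. Acod1 had a difference of -0.19 ± 0.35 (adjusted p = 0.644), Ccl2 of -0.38 ± 0.36 (adjusted p = 0.361) and Saa3 of -0.18 ± 0.21 (adjusted p = 0.467). These values depend on the scaling. The median of all genes between these times moved by 0.450 in the series table, 0.102 after quantile normalization and -0.113 with a normexp background. Il1r2 was higher at 24 hr, at 283, 378, 216, 197 and 249.5 (2.70 ± 0.44, adjusted p = 8.89e-06), and so was Fosl1 (2.74 ± 0.29, adjusted p = 1.7e-08), an AP-1 member that was also called higher at 3 hr.

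Of the genes lower at 3 hr, Fgf21 was at 31.4, 34.3, 33.8, 32.1 and 41.8 at 24 hr, within the range of untreated livers or just above it, and at least 7.35-fold above its 3 hr level (adjusted p = 1.58e-12), which was above background on no 3 hr array. The same held for Mycn, at least 7.19-fold higher at 24 hr than at 3 hr (adjusted p = 2.39e-11). Cldn5 (3.32 ± 0.22, adjusted p = 6.85e-12), Pdgfrb (3.30 ± 0.21, adjusted p = 3.47e-12) and Egfl7 (3.11 ± 0.16, adjusted p = 2.07e-13) were likewise higher at 24 hr than at 3 hr. Lrat was at 28.5, 27.8, 28.1, 34.9 and 20.99 at 24 hr and did not differ from 3 hr past the threshold (0.15 ± 0.25, adjusted p = 0.602). Fasn was lower still at 24 hr, at 25.5, 37.1, 39.3, 26.9 and 33.1, by -2.78 ± 0.39 (adjusted p = 1.07e-06).

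**Figure D5:**
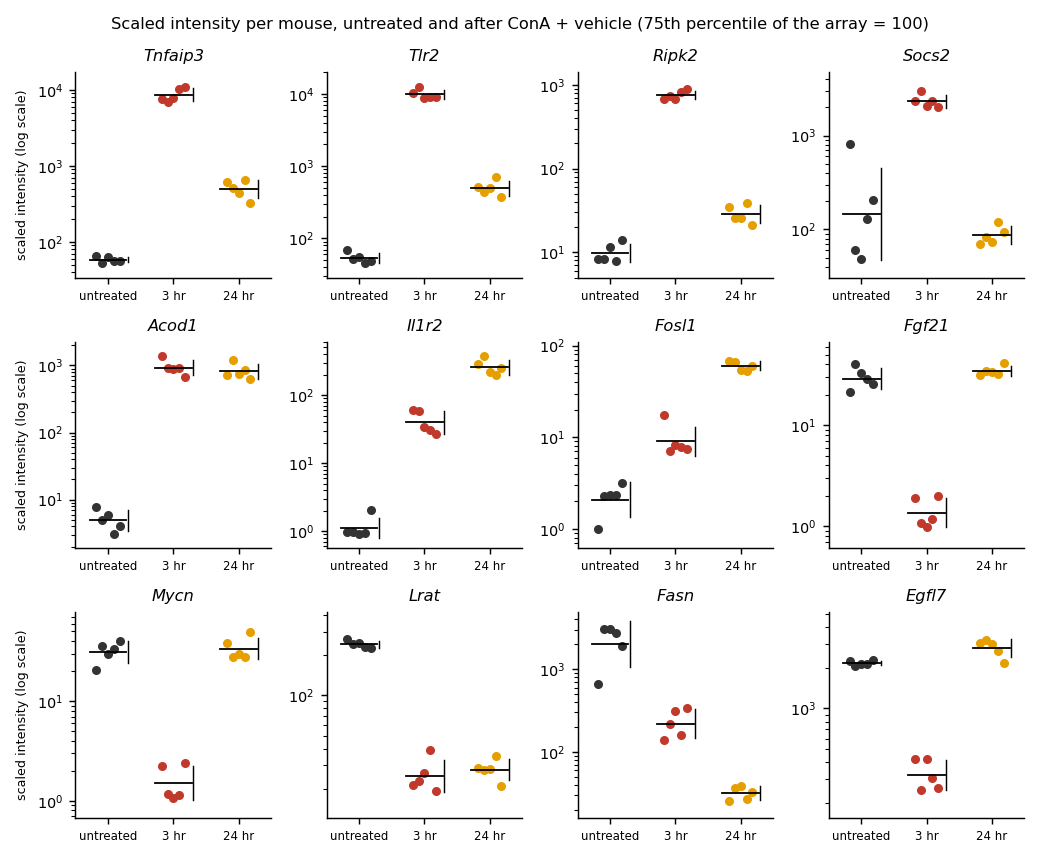
Scaled intensity of 12 genes in untreated livers and in livers taken 3 hr and 24 hr after ConA + vehicle (vertical axes, log scale, 5 mice each), with horizontal lines at the mean of log values and vertical lines of 1 SD. Tnfaip3, Tlr2 and Ripk2 peak at 3 hr, Il1r2 and Fosl1 are highest at 24 hr, Lrat stays low and Fasn is lowest at 24 hr.

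ConA + BW245C livers at 3 hr offer a second set of ConA livers, though all 5 of their arrays lay on slide 3 with ConA + vehicle replicates 4 and 5. Against the same ConA + vehicle arrays 1776 genes were higher (11.8%) and 2547 lower (16.9%), or 28.6% in either direction, and with slide as a blocking term 854 and 916. In the series table the balance turned, with 2871 higher and 1754 lower. Tnfaip3 had a difference of -0.48 ± 0.19 (adjusted p = 0.0625) between these groups, Socs1 of -0.74 ± 0.22 (adjusted p = 0.0161) and Rnf43 of -1.36 ± 0.23 (adjusted p = 0.000214). Arntl stood at 367, 308, 333, 326 and 279.8 in ConA + BW245C livers, above the ConA + vehicle values, by 1.79 ± 0.25 (adjusted p = 2.49e-05).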

How the data were processed

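RNA of 25 livers was measured on 25 one-colour Agilent arrays. The deposited intensity values are spot signals from Agilent Feature Extraction, version 10.7.3.1 per the file headers and 9.1 per the submitters' processing notes, background-subtracted and detrended per array and not normalized between arrays. The deposited series table holds intensity values that are these signals times 1 factor per array, by a rule not given in the sources used here, and served as an alternative. Flagged and control spots were left out, replicate spots averaged, log2 values taken and each array's 75th percentile subtracted. Probes well above background on at least 5 arrays were kept, with the brightest probe for each of 15104 genes. limma 3.58.1 (R 4.3.3) fitted 1 mean per group over all arrays, with Benjamini-Hochberg adjustment. Labels give separate mice, so p-values measure the spread between mice, with any differences between slides in it. The number of arrays limits precision. Where no array of a group was well above background, folds are "at least", set against the lowest signal well above background. The fit was tested on simulated data. Replicate numbers did not pair the arrays: 4 of 25 arrays correlated best with one of equal number, and deviations of same-numbered ConA + vehicle and untreated arrays had a median correlation of 0.0407 (-0.0559 to 0.108). Named genes were the 15 largest rises and falls measured on all 10 arrays, up to 4 per direction in each of 59 pathway and 15 marker lists, the 10 largest per direction outside them, and list members that did not pass; Fosl1 and Cry1 were chosen after their values were seen. Members and lists were chosen with earlier results of these data known. Some genes the rules chose are not reported here. Alternatives were 14 planned and 2 added after seeing the data, which left out slide 2 or the slide 3 arrays.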

Additional observations from a re-analysis of the deposited data

Results flagged for a closer look

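In 20 of 456 groups of 5 values, of named genes or of array quality, (4.39%) 1 liver lay apart from the rest, by a gap over the group's range of at least 0.71, which chance gives in about 1 in 20 groups. Of these groups 7 were not above background on all 5 arrays. ConA + vehicle replicate 1 was the highest of its group, with that share at 0.7105 for Ackr4, 0.7101 for Arntl, 0.7679 for Ccl2, 0.7158 for Ccnf, 0.8734 for F3, 0.8536 for Fosl1, 0.7676 for Gzmb, 0.7436 for Itgal and 0.7984 for Tnf. ConA + vehicle replicate 4 was the lowest of its group, with that share at 0.9306 for Il1rap. ConA + vehicle replicate 5 was the highest of its group, with that share at 0.7788 for Egr2. Untreated replicate 1 was the highest of its group, with that share at 0.8030 for Foxa2 and 0.7735 for Il17ra. Untreated replicate 1 was the lowest of its group, with that share at 0.7134 for Fosl1. Untreated replicate 2 was the lowest of its group, with that share at 0.7344 for Jdp2. Untreated replicate 5 was the highest of its group, with that share at 0.9773 for Csf3, 0.9259 for Gucy1a1, 0.8912 for Il1r2 and 0.7337 for Ptgs2. Untreated replicate 5 was the lowest of its group, with that share at 0.7376 for Hcar2. 

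Between 24 hr and 3 hr after ConA + vehicle 10338 genes differed, and between ConA + BW245C and ConA + vehicle at 3 hr 4323, both by a direct test (limma, adjusted p under 0.05). A further 6962 probes for unnamed genomic intervals entered the scaling of the arrays but no test of a gene above. At 3 hr after ConA + vehicle 2454 of these probes were higher (35.2%) and 1013 lower (14.6%) than in untreated livers. The balance was the reverse for 19625 named probes, of which 23.69% were higher and 36.27% lower. The median scaled log2 value of all probes also differed between arrays. It was -3.64 and -3.69 on ConA + vehicle replicates 4 and 5, whose slide 3 held no untreated array. On replicates 1 to 3 it was -3.97 to -3.93 and on untreated arrays -4.00 to -3.89. The cause of the difference between kinds of probe, and the part of the slides in it, was not tested.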

How the results depend on the processing

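At 3 hr against untreated, 224 of 225 named genes never reversed, and Kdr did with the mean of probes (-0.82). Of 181 called genes, 144 stayed called under every alternative that tested them, and 172 when single slides are set aside. Of 44 named genes that did not pass, 20 did under at least one alternative other than a single slide. Leaving out 1 liver gave 3545 to 3803 genes higher and 5188 to 5736 lower, and leaving out slide 2 gave 3542 and 5527. Only slide 1 gave 2461 higher, only slide 2 gave 1066 higher and 1184 lower, both with fewer arrays, and a 2-fold minimum 1513 and 1918. The series table moved the median of all genes by -0.106, and no filter on dim probes by 0.162. With the replicate number as a block 3704 genes were higher and 5583 lower, and no named call was lost. For 24 hr against 3 hr the series table gave 8346 higher and 2922 lower, a 2-fold minimum 2389 and 2026, and leaving out 1 liver 4830 to 4977 and 5082 to 5343. For BW245C against vehicle the counts, higher and lower, were 854 and 916 with the slide as a fixed block, 1041 and 1609 as a random block, 164 and 166 on slide 3 alone, 751 and 1439 with only the groups compared, and 243 and 329 at a 2-fold minimum. The series table gave 2871 higher and 1754 lower, and leaving out 1 liver 1178 (without ConA + vehicle replicate 1) to 2266 and 1926 to 3146. The causes of these shifts were not tested. Dim probes bound the folds of genes below background.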
